A study of Pilatotrama ljubarskyi with 14 samples.

Results

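Trametes ljubarskyi, also named Pilatotrama ljubarskyi, is a white-rot fungus, here strain BRFM1659. Of the 878 genes in its deposited expression table, 34 (3.87%) kept nearly the same transcript level on all 5 carbon sources. They were chosen by their deposited log2 values on cellulose, wheat straw, aspen, pine and maltose: the highest minus the lowest had to be under 0.5, the highest minus the second highest under 0.4, and the lowest at least 4. The first condition alone chose them, since the 34 genes under that limit also met the other conditions. Because these values made the choice, the closeness of the 5 levels is a description and was not tested. The table gives gene numbers of the JGI MycoCosm annotation and does not pair them with names or functions, so genes are named here by number and none is given a role.

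The mycelium came from 3-day cultures in the same liquid medium. The cellulose, wheat straw and pine cultures held a solid at 15 g/l, which was the microcrystalline cellulose Avicel, ground straw of wheat or ground pine, and 2.5 g/l maltose. The aspen cultures held 15 g/l of milled aspen with an amount of maltose that could not be read in the labels, and the maltose cultures held 20 g/l maltose alone. PolyA RNA was sequenced in 2 libraries from pine cultures and in 3 from each of the others. Separate cultures are not stated in the labels for these libraries, so the spread between them may be technical.

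White-rot fungi degrade lignin, cellulose and hemicellulose of wood with secreted enzymes. Many of the genes for these enzymes are known to be repressed by simple sugars and induced by plant polymers, so the transcriptome of such a fungus depends strongly on what it feeds on. Genes whose transcript level stays even across growth conditions are of practical use as a reference for measuring the others, and are often sought among genes of basic cell functions. Whether the 34 genes belong to such functions cannot be read from the table. A level here is a share of the sequenced RNA after scaling, so neither fungal biomass in a culture nor RNA per cell can be read from it. A change in a gene cannot be told apart from a change in the rest of the RNA.

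The deposited columns were read as means over the libraries of a carbon source. Whole read counts of single libraries were recovered from them, as the set of whole numbers that gives the deposited mean to its last digits, for 164 of the 170 values of the 34 genes, and 31 of the genes were recovered in all 14 libraries. At levels from 4 to 10 none of 320 deliberately altered values gave a single set. At levels from 10 to 12, 16 of 320 did, and from 12 to 13, 25 of 160 did, so a recovered set there can be wrong. These rates are for carbon sources with 3 libraries. On pine none of 200 altered values gave a single set. Libraries are lettered A, B and C within a carbon source by scaling factor, and it is not known which letter is which labelled replicate. Relative depth ran from 0.646 (pine library B) to 1.301 (aspen library A), and the 31 genes together held 16069 to 30788 reads per library. Every level is a log2 of normalized reads plus 1.

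The steady genes were spread over most levels of the table. Their mean level ran from 4.40 to 13.91 with a median of 9.46, and that of all 878 genes from 1.67 to 16.29 with a median of 9.34. Levels from 8 to 12 held 23 of the 34 (67.6%), against 51% of the table. Only 1 steady gene, number 984488, had a mean level of at least 12, where the table had 134 genes. The range over carbon sources had a median of 0.44 in the steady genes (1.35-fold) and 1.56 in the table (2.96-fold). In the table, 672 genes (76.5%) had a range of at least 1 and 333 (37.9%) a range of at least 2. There was no gap at the limit: 26 further genes had a range from 0.5 to 0.6.

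**Figure D1:**
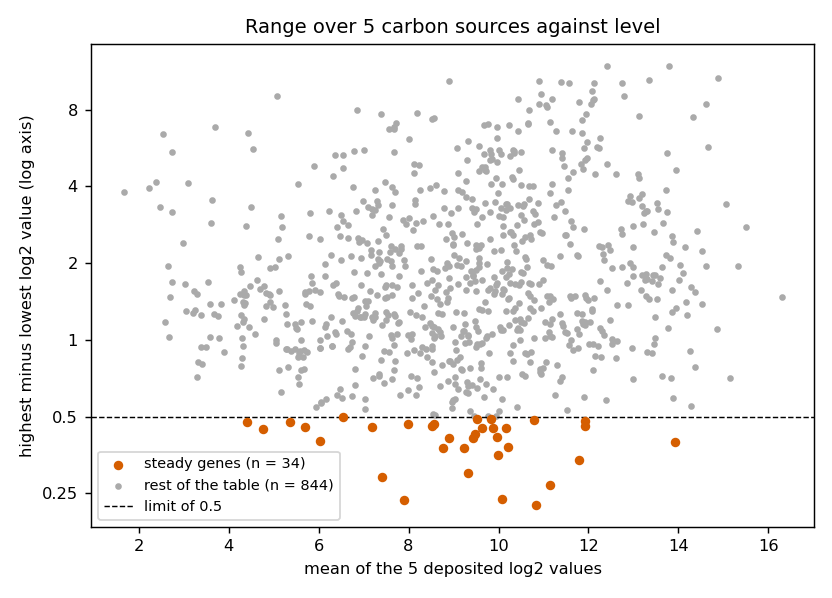
Highest minus lowest deposited log2 value over the 5 carbon sources (vertical, log axis) against the mean of the 5 values (horizontal) for each gene; orange points are the 34 steady genes, grey points the other 844 genes and the dashed line the limit of 0.5. The steady genes form the lower edge of a continuous cloud and lie between mean levels of 4.40 and 13.91.

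On either side of the limit the ranges were nearly equal. Just inside it were gene 966253 with a range of 0.497, gene 962379 with 0.490 and gene 970110 with 0.490. Just outside were gene 1053317 with 0.502, gene 963344 with 0.502 and gene 1070934 with 0.503. No gene under the range limit was removed by the limit of 0.4 on the gap between the highest and second highest value. The largest such gaps inside were 0.302 for gene 1054087, highest on cellulose, and 0.276 for gene 981559, highest on aspen.

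The small differences that remained had no common direction. Aspen was the highest carbon source for 11 of the 34 genes (32.4%; 14.1% of the table) and also the lowest for 10 (29.4%; 25.5% of the table). Cellulose was highest for 8 (23.5%; 20.2% of the table) and lowest for 7 (20.6%; 14.2% of the table). Wheat straw was highest for 3 (8.82%; 14.2% of the table) and lowest for 4 (11.8%; 11% of the table). Pine was highest for 5 (14.7%; 23.9% of the table) and lowest for 6 (17.6%; 10.9% of the table). Maltose was highest for 7 (20.6%; 27.6% of the table) and lowest for 7. Maltose was the lowest carbon source for 20.6% of the steady genes and for 38.3% of the table. The median difference from maltose over the 34 genes was 0.02 for cellulose, -0.04 for wheat straw, 0.01 for aspen and 0.01 for pine. Over the 867 genes tested it was 0.09 for cellulose, 0.16 for wheat straw, 0.09 for aspen and 0.33 for pine. The 4 comparisons share the maltose libraries, and the rule holds the members' differences under 0.5 in size, so their near-zero medians are no separate finding.

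**Figure D2:**
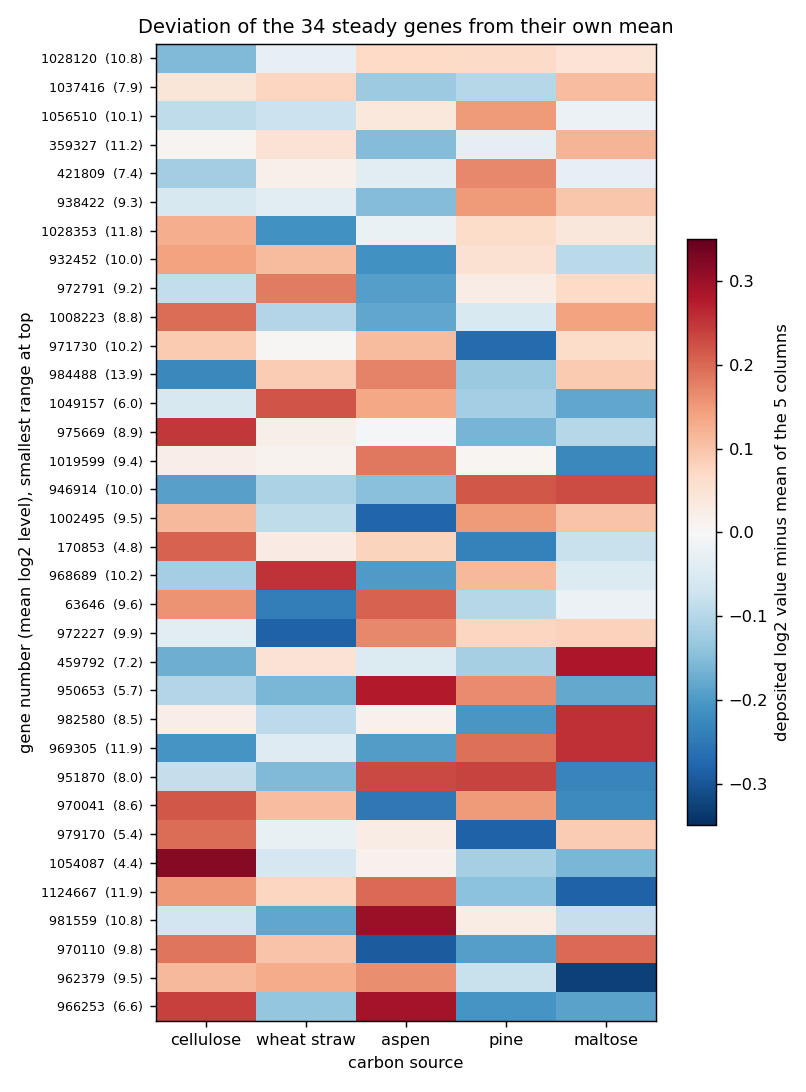
Deviation of each of the 34 steady genes from its own mean over the 5 deposited values, by carbon source; red is above and blue below that mean, rows are ordered by range with the smallest at the top, and the mean log2 level stands in brackets. The rows do not share a common pattern: aspen is the highest column in 11 rows and the lowest in 10.

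Gene 1028120 had the smallest range of the whole table, 0.225 or 1.17-fold. Its levels were 10.68, 10.67 and 10.70 in the cellulose libraries, 10.81, 10.82 and 10.79 on wheat straw, 10.94, 10.85 and 10.94 on aspen, 10.98 and 10.83 on pine, and 10.78, 11.01 and 10.88 on maltose. The cellulose libraries lay below all others, and wheat straw, aspen and pine each overlapped with maltose. Over all 14 libraries its levels spanned 0.334, the least of the 31 fully recovered genes, where the median span was 0.676 and the highest 1.77.

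Gene 359327 had a range of 0.271. Its levels were 11.06, 11.19 and 11.26 on cellulose, 11.22, 11.22 and 11.18 on wheat straw, 10.90, 11.05 and 11.06 on aspen, 11.15 and 11.09 on pine, and 11.28, 11.27 and 11.27 on maltose. The 3 aspen libraries overlapped with cellulose only, and the 3 maltose libraries lay above all others. Its pooled SD between libraries of a carbon source was 0.0675, the second smallest of the steady genes. Aspen minus maltose was -0.27 ± 0.09 (limma SE); it was 0.24 after quantile normalization of the libraries, -0.25 after a median shift of each library and -0.22 without aspen library A, and was called in none of these.

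Gene 1056510, with a range of 0.237, had levels of 9.86, 9.90 and 10.23 on cellulose, 9.99, 10.12 and 9.93 on wheat straw, 10.13, 10.13 and 10.12 on aspen, 10.21 and 10.26 on pine, and 9.99, 10.13 and 10.09 on maltose. All carbon sources overlapped with at least 1 other. Gene 421809 was steady at a lower level, with means of 7.28 on cellulose, 7.42 on wheat straw, 7.37 on aspen, 7.57 on pine and 7.38 on maltose and a range of 0.290. Its recovered reads ran from 113 to 211 per library, and its pooled SD of 0.134 was close to the 0.112 that counting error alone gives.

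A small range of means did not always go with close libraries. Gene 1037416 had the second smallest range in the table, 0.235, and yet the third largest pooled SD of the steady genes, 0.356. On cellulose its levels were 8.36, 8.30 and 7.18, so that library C held 149 reads where A and B held 386 and 358. Its other levels were 7.87, 8.20 and 7.87 on wheat straw, 7.93, 7.54 and 7.86 on aspen, 7.72 and 7.88 on pine, and 7.81, 8.20 and 8.03 on maltose. The range of its means was 0.66 times the pooled SD, the smallest such ratio of the 34 genes. With each library left out in turn, the gene met the rule in 13 of 14 cases and failed it without cellulose library C. Its place among the steady genes thus depends on that library.

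Gene 979170 had the largest pooled SD of the steady genes, 0.562. It held 55, 64 and 39 reads on cellulose, 41, 39 and 34 on wheat straw, 32, 62 and 50 on aspen, 37 and 18 on pine, and 77, 20 and 50 on maltose. The maltose libraries alone, at levels of 6.17, 4.40 and 5.79, spanned all the others. The means, between 5.08 on pine and 5.56 on cellulose, had a range of 0.478, under that SD. Gene 170853, with the next largest pooled SD (0.376), held 15 to 45 reads per library.

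**Figure D3:**
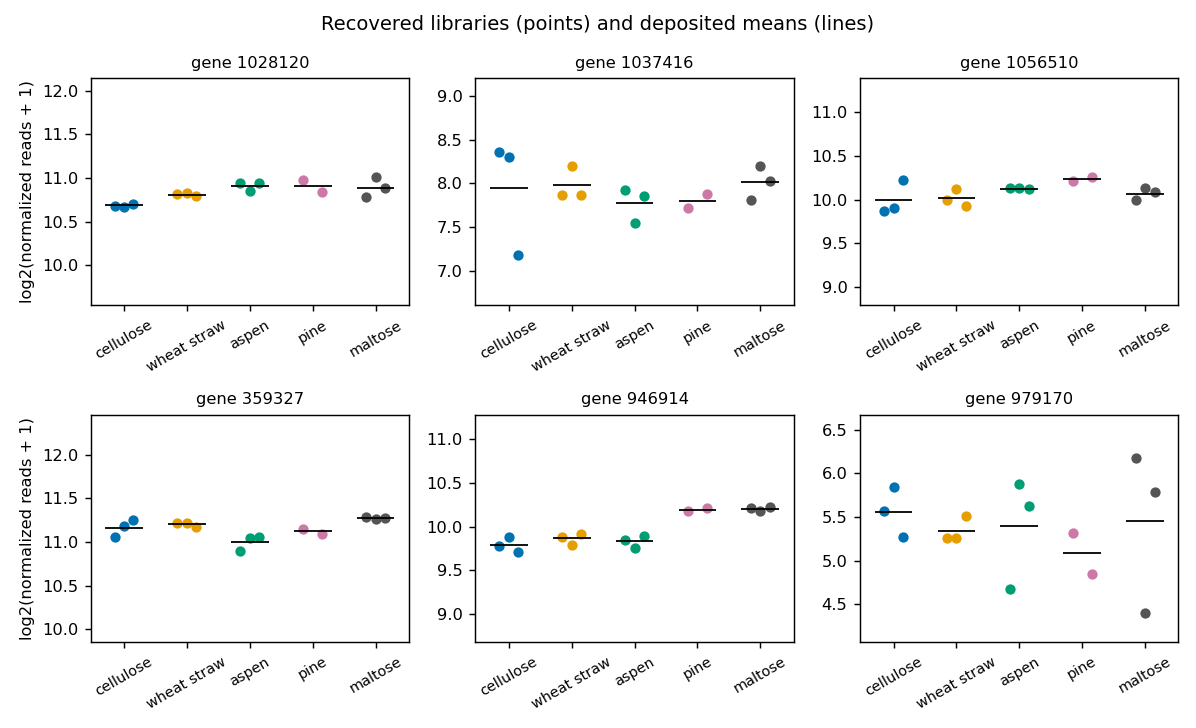
Levels of 6 steady genes in the recovered libraries, log2(normalized reads + 1), by carbon source; points are libraries, black lines the deposited means, and each vertical axis spans the same 2.6 log2 units around the gene's mean. Libraries of gene 1028120 lie within 0.334 of each other, those of gene 979170 within 1.77, and gene 1037416 has 1 cellulose library far below the others.

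Few reads lay behind the steady genes of lowest level. Gene 1054087, with the lowest mean level of 4.40, held 11 to 32 reads per library. Its pooled SD of 0.275 was no larger than the 0.311 expected from counting. Its means of 4.72 on cellulose, 4.34 on wheat straw, 4.41 on aspen, 4.28 on pine and 4.24 on maltose are therefore not resolved at this depth. Counting error made up more than 50% of the variance between libraries in 6 of the 34 genes.

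The steady genes of highest level rest on far more reads. Gene 984488, the most abundant with a mean level of 13.91, had deposited means of 13.69 on cellulose, 14.003 on wheat straw, 14.09 on aspen, 13.79 on pine and 14.01 on maltose. Its reads were recovered on pine alone, 12712 and 9636, and its spread elsewhere is not known. Gene 1124667 had a mean level of 11.93 and gene 969305 one of 11.92, with 2278 to 5116 and 2813 to 4824 reads in the libraries recovered.

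The spread between libraries of the same carbon source was not used by the rule. The pooled SD within a carbon source had a median of 0.143 in the 34 steady genes (0.063 to 0.562) and of 0.228 in all 867 tested genes. At levels of 8 to 10 the median was 0.143 in the 14 steady genes and 0.219 in the 219 others, and at levels of 10 to 12 it was 0.0951 in 9 steady genes and 0.181 in 206 others. Below level 6 it was 0.326 in 4 and 0.387 in 112. A gene that varies less between libraries also more easily has 5 close means, so the choice and the spread are not fully separate measures, and no test was made. By carbon source, the median SD of the steady genes was 0.128 on cellulose, 0.0914 on wheat straw, 0.0899 on aspen, 0.115 on pine and 0.149 on maltose. Over the tested genes recovered there it was 0.228 on cellulose (724 genes), 0.134 on wheat straw (744) and 0.133 on aspen (770). On pine it was 0.119 (867 genes) and on maltose 0.25 (771). The medians of the steady and the tested genes were closest on pine, but the sets of tested genes differ. Pine was searched at every level and has 2 libraries, so the carbon sources are not compared on equal terms.

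**Figure D4:**
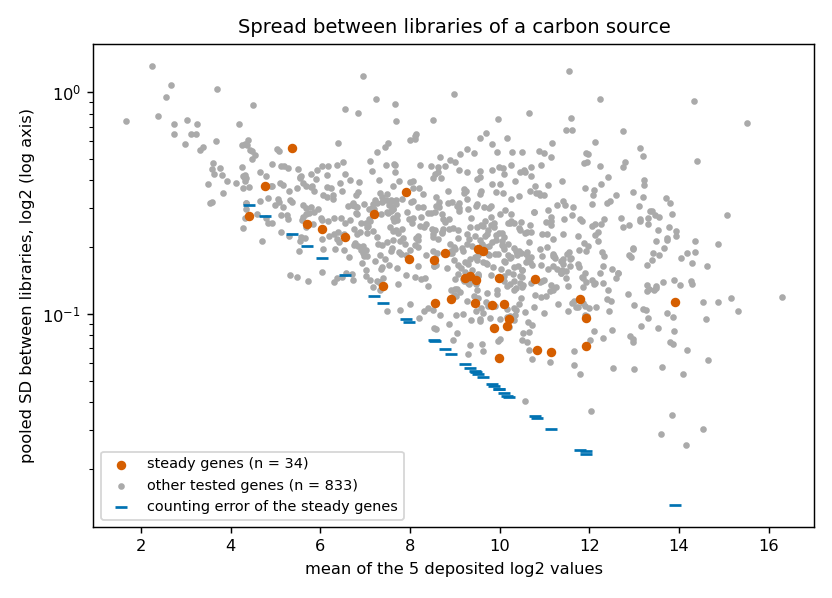
Pooled SD between libraries of a carbon source (vertical, log axis) against mean level for each tested gene; orange points are the 34 steady genes, grey points the other 833, and blue dashes the SD that counting error alone gives each steady gene. Spread falls with level, and the steady genes of levels 8 to 12 lie mostly in the lower part of the cloud.

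Shifts of whole libraries were small in the steady genes. The median deviation of a library from its carbon source's mean, over the steady genes recovered there, ran from -0.04 in pine library A to 0.06 in cellulose library B. Over all recovered genes it ran from -0.11 in cellulose library C to 0.08 in cellulose library B. Wheat straw library C lay below the wheat straw mean in 26 of 33 steady genes and library B above it in 25 of 33. Their median deviations in the steady genes were -0.030 in C and 0.054 in B. Over all recovered genes they were 0.0049 in C and -0.0032 in B. Maltose library B stood apart in the whole table, with an SD of its deviations across genes of 0.456, where maltose libraries A and C had 0.271 and 0.279. Among the steady genes it had 0.273, against 0.191 in A and 0.152 in C, and it was the lowest of all 14 libraries for 6 of 31 genes and the highest for 5. Without it, 28 of the 34 genes still met the rule, and the median pooled SD of the 34 was 0.116.

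Even among the steady genes some differences between carbon sources were larger than the spread between libraries. A linear model with 1 mean per carbon source was fitted to the whole table with limma, and genes were called at a Benjamini-Hochberg adjusted p under 0.05 with no minimum fold. Over the 5 carbon sources, 13 of the 34 genes were called by the moderated F test, where 92.8% of the 867 tested genes were. Without an aspen library the count was 7 of 32 members tested (A left out; 89.3% of the tested genes), 6 of 32 (B; 88.9%) or 7 of 32 (C; 89.1%). Against maltose, 6 were called on cellulose (69.7% of the tested genes), 7 on wheat straw (73.4%), 11 on aspen (74%) and 5 on pine (72.5%). The wheat straw count was 11 of 33 without maltose library B (74.3% of the tested genes) and the aspen count 6 of 32 without aspen library A (69.1%). The pine count was 1 of 33 without pine library B (64.7%) and 3 of 33 without maltose library C (71.3%). These counts rest on the differences that the rule itself limited, so a share under that of the table follows from the choice. The adjustment was made over all tested genes, most of which were called, so its error rate does not hold within the 34. An unadjusted p under 0.05 was met by 13 of the 34 in the moderated F test. In the limma comparisons with maltose it was met by 9 on cellulose, 9 on wheat straw, 11 on aspen and 5 on pine. In all, 17 genes were called in at least 1 of the 4 comparisons, as were 95.2% of the tested genes. In at least 3 of them 5 were called, as were 66.2% of the tested genes: 946914, 969305, 1124667, 962379 and 970041. Of these, gene 970041 is named because of this count, after its values were seen.

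Genes 946914 and 969305 had the same order of carbon sources. Gene 946914 had levels of 9.78, 9.88 and 9.70 on cellulose, 9.88, 9.79 and 9.92 on wheat straw, 9.85, 9.75 and 9.89 on aspen, 10.18 and 10.21 on pine, and 10.21, 10.18 and 10.22 on maltose. The 9 libraries of the first 3 lay below the 5 of pine and maltose with no overlap. Its pooled SD of 0.063 was the smallest of the steady genes. Its range of 0.417 was 6.62 times that SD, the largest ratio of the 34. The median ratio over the 867 tested genes was 7.17. For gene 946914 the moderated SD of the fit was larger, at 0.114. The difference of this gene from maltose was -0.42 ± 0.09 on cellulose, -0.34 ± 0.09 on wheat straw, -0.37 ± 0.09 on aspen and -0.01 ± 0.10 on pine (limma SE). After quantile normalization the aspen difference was -0.09 and not called.

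Gene 969305 had levels of 11.85, 11.91 and 11.85 on wheat straw, 11.67, 11.76 and 11.74 on aspen, 12.02 and 12.20 on pine, and 12.12, 12.12 and 12.27 on maltose. Its reads on cellulose had more than 1 solution, and the deposited mean there was 11.71. Wheat straw and aspen lay below pine and maltose with no overlap. For gene 969305 the maltose mean lies above level 12, where a recovered set is least certain. Its difference from maltose was -0.46 ± 0.10 on cellulose and -0.06 ± 0.11 on pine (limma SE), the first with no spread measured on cellulose itself. On wheat straw it was -0.30 ± 0.10 (limma SE), and without maltose library C it was -0.25 and not called.

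Genes 1124667 and 962379 were lowest on maltose. Gene 1124667 had levels of 12.08, 12.02 and 12.14 on cellulose, 12.02, 11.97 and 12.03 on wheat straw, 11.79 and 11.78 on pine, and 11.68, 11.47 and 11.79 on maltose, with a deposited mean of 12.13 on aspen, where no single solution was found. Pine overlapped with maltose, and cellulose and wheat straw lay above both. For gene 1124667 the cellulose and wheat straw means lie above level 12, where a recovered set is least certain. Its wheat straw difference from maltose of 0.36 ± 0.11 (limma SE) was 0.28 and not called after a median shift of each library. Gene 962379 had levels of 9.88, 9.78 and 9.26 on cellulose, 9.65, 9.69 and 9.62 on wheat straw, 9.84, 9.56 and 9.67 on aspen, 9.40 and 9.50 on pine, and 9.27, 8.98 and 9.34 on maltose. Its wheat straw, aspen and pine libraries lay above the maltose libraries, and 1 cellulose library overlapped with them. Maltose library B was the lowest of the 14 for gene 962379. Without it the differences from maltose were 0.34 on cellulose and 0.35 on wheat straw, and neither was called, against 0.44 ± 0.16 and 0.46 ± 0.16 with it (limma SE). The cellulose call was also lost without cellulose library A or B, the wheat straw call without wheat straw library B and the aspen call without aspen library A. After quantile normalization the differences were 0.28 on cellulose and 0.25 on wheat straw, and neither was called.

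Gene 970041 had levels of 8.63, 8.94 and 8.75 on cellulose, 8.72, 8.71 and 8.57 on wheat straw, 8.39, 8.18 and 8.35 on aspen, 8.66 and 8.75 on pine, and 8.45, 8.27 and 8.28 on maltose. Aspen and maltose overlapped and lay below the other 3 carbon sources. Its pine difference from maltose of 0.37 ± 0.13 (limma SE) was 0.32 and not called without pine library B, and its wheat straw call was lost without maltose library C or wheat straw library A or B. The calls of this gene also depended on scaling. After a median shift of each library, its differences from maltose were 0.25 on wheat straw and 0.18 on pine, and neither was called. After quantile normalization they were 0.21 on cellulose, 0.10 on wheat straw and 0.09 on pine, and none was called. Gene 970110 was split another way, with 10.01, 10.02 and 10.004 on cellulose, 9.92, 10.03 and 9.82 on wheat straw, 9.54, 9.54 and 9.52 on aspen, 9.45 and 9.82 on pine, and 9.96, 10.12 and 9.99 on maltose. The aspen libraries lay below all others but pine library A. Its difference from maltose was -0.49 ± 0.11 on aspen and -0.39 ± 0.13 on pine (limma SE), and without pine library A the pine difference was -0.20 and not called.

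The fit also gave an interval for each difference. For 32 of the 34 genes the 95% intervals of all 4 differences from maltose lay within 1 on the log2 scale, which is a factor of 2. The same held for 110 of the 867 tested genes (12.7%). Since the rule already holds every such difference of the 34 genes under 0.5, their higher share follows largely from the choice of genes. For 4 of the 34 the intervals lay within 0.5, the size of the rule's own limit, which was not counted over the tested genes. Among the 34, the exceptions to the bound of 1 were genes 979170 and 1054087, both named above for their low read counts. Their intervals reached -1.36 and 1.03, in that order. These intervals take no account of the choice of genes with small differences.

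Which genes count as steady depended on how the columns were scaled. As deposited, the column medians over the 878 genes were 9.35 on cellulose, 9.36 on wheat straw, 9.15 on aspen, 9.31 on pine and 8.87 on maltose. After each column was shifted to a common median, 30 genes met the rule, of which 6 were among the 34. After quantile normalization of the columns 26 did, of which 5 were among them. With a milder shift, by the median difference of a column from the genes' own means, 35 genes met the rule and 15 were among the 34. The sources used here do not say why these 878 genes are in the table, and which scaling is nearer to the amounts in the cells was not tested.

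**Figure D5:**
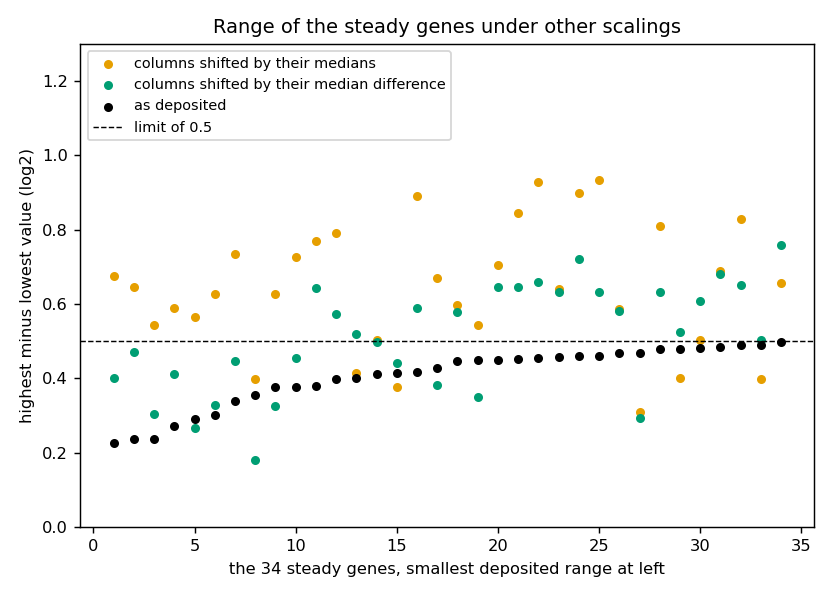
Highest minus lowest value (log2) of each of the 34 steady genes, ordered by deposited range, as deposited (black), after shifting each column by its median over the table (orange) and after shifting it by its median difference (green); the dashed line is the limit of 0.5. The median range of the 34 genes was 0.64 after the first shift, 0.52 after the second and 0.44 as deposited.

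Under all 3 of these other scalings, 3 of the 34 genes stayed within the limits, and 15 stayed within them under none. The 3 are genes 932452, 1019599 and 970041; the first 2 are named for this reason, after their values were seen. Gene 932452 had levels of 10.09, 10.19 and 10.10 on cellulose, 10.02, 10.18 and 10.08 on wheat straw, 9.81, 9.75 and 9.75 on aspen, 10.15 and 9.93 on pine, and 9.84, 10.18 and 9.65 on maltose. Its aspen libraries overlapped with maltose only. Gene 1019599 had 9.44, 9.49 and 9.47 on cellulose, 9.49, 9.58 and 9.29 on wheat straw, 9.73, 9.54 and 9.61 on aspen, 9.44 and 9.46 on pine, and 9.19, 9.07 and 9.39 on maltose. Of the carbon sources, wheat straw alone overlapped with its maltose libraries. For gene 1019599 the aspen difference from maltose was 0.41 ± 0.11 (limma SE) and was called. The differences on cellulose, wheat straw and pine were 0.25, 0.24 and 0.23, and none was called. This gene was also called by the moderated F test (adjusted p 0.048). Gene 1028120, with the smallest deposited range, had a range of 0.68 after the shift to a common median.

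Leaving out a library changed the membership less than the scaling did. Without each of the 14 libraries in turn, 31 to 37 genes met the rule. Of the 34, 16 met it in all 14 cases, among them 1028120, 1056510, 359327, 421809, 946914 and 984488. The reads of gene 984488 were recovered on pine alone, so for it the other 12 cases use the deposited mean. Gene 966253, the nearest to the limit, met the rule in 8 of 14 and gene 1054087 in 9 of 14.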

How the data were processed

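PolyA RNA of 14 libraries was sequenced, and the deposited table gives 1 value per gene and carbon source, a normalized log2 read count made by the authors, per the file headers. That each is a mean over libraries was inferred from the values. Per the submitters' processing notes, TopHat2, HTSeq and DESeq 1.5 were used; genome build: not given in the sources used here, like the settings. The members and lists were chosen with earlier results of these data known.

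The deposited values, given to 15 significant digits, were read as the mean over libraries of log2(reads divided by the library's relative depth, plus 1). This form was inferred from the values, and those above the searched levels could not be checked against it. The depths were found from low values, where few whole numbers are possible, and the reads of each gene by searching all whole-number sets within a window, with Python 3.11.15, NumPy 2.4.6, numba 0.67.0 and pandas 2.3.3. This procedure was devised after seeing the data. The tolerance was 1.5e-14 below level 8, 3e-14 from 8 to 10 and 1.2e-13 above. The window, the largest difference allowed between libraries, was 6 log2 units up to level 8, 4 up to 10, 3 up to 11, 2 up to 12 and 1 up to 13; pine, with 2 libraries, was searched at every level with 6. Of 4390 values 3931 (89.5%) gave a single solution. The others were above the searched levels (367), fitted by more than 1 set (84) or by none (8). Altered values that should have no solution gave a single one in 0 of 320 cases at levels 4 to 10, 16 of 320 at 10 to 12, 25 of 160 at 12 to 13 and 0 of 200 on pine. Recovered reads above level 10 may therefore contain wrong sets. A gene with no single solution on a carbon source entered the fit by its deposited mean there, with no spread.

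Recovered log2 values were fitted with limma 3.58.1 in R 4.3.3 (1 mean per carbon source, variances moderated with a mean trend, Benjamini-Hochberg adjustment over 867 genes with log2 of at least 4 in at least 2 libraries, residual degrees of freedom 1 to 9). All 34 members passed this filter. The model was tested on simulated data with differences of 1 and 2 on the log2 scale. The F test called 97% and 100% of these, and 5 of 667 unchanged genes. Differences under 0.5, as in the members, were not covered. The 668 genes recovered in every library held 395810 to 675053 reads per library. Counting SDs cover counting error only. Alternatives were other scalings, filters, pseudocounts, rule limits and leaving out each library.

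Genes named are the 5 with the smallest range, the 3 with the highest and the 3 with the lowest mean level, the 3 on each side of the range limit, the 2 nearest the gap limit, and the 2 with the largest and the 2 with the smallest pooled SD; other names are marked as chosen after their values were seen.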

Additional observations from a re-analysis of the deposited data

How the results depend on the processing

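The number of steady genes was 34 at a range limit of 0.5, 12 at a limit of 0.4 and 57 at 0.6; without each library in turn it was 31 to 37, and dropping or raising the other limits and rescaling the columns gave 26 to 35. The shift by median differences was chosen after seeing the data. Leaving out each library gave 6 to 16 of 32 or 33 members called over the 5 carbon sources (88.9% to 94% of the tested genes), 5 to 7 on cellulose (64.4% to 71.4%), 5 to 11 on wheat straw (66.8% to 74.4%), 6 to 12 on aspen (68.3% to 74.9%) and 1 to 7 on pine (64.7% to 73.5%). A median shift of each library gave 16 of 34 members called over the 5 carbon sources (92.1% of the 868 tested genes). Against maltose it gave 6 on cellulose (70.4%), 8 on wheat straw (74%), 11 on aspen (74.7%) and 5 on pine (71.8%). Quantile normalization, with 31 members tested, gave 15 over the 5 carbon sources (91.8% of the 656 tested genes) and 13 on aspen (72.7%). On cellulose it gave 3 (66.3%), on wheat straw 4 (70.7%) and on pine 4 (69.4%). The difference of gene 359327 on aspen from maltose reversed under quantile normalization, at 0.24 (limma adjusted p 0.0531). The called difference of gene 1019599 was not followed through these settings. Of the 20 called differences of the other named genes, 4 were lost when each library was shifted by its median. Under quantile normalization 14 of them could be fitted and 8 were lost, the reversed one among them. Without the filter, without the variance trend and with a pseudocount of 0.5, 20 of 20 were kept. The cause of these changes was not tested. The median pooled SD of the members ran from 0.116 to 0.152 without each library. No paired analysis was possible because the deposited columns carry no replicate numbers and the recovered libraries cannot be tied to those of the labels. Reads limit what can be said below level 6, and above level 12 few values could be recovered outside pine.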
